A study of Mus musculus with 8 samples.

Results

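Later-intron peaks are the H3K4me3 peaks that the deposited annotation places in an intron other than the first intron of a transcript, in the lung tumor cells of KL and KLG4m/m mice. They were chosen from the annotation alone, by taking every listed peak whose entry begins with the word Intron and does not name intron 1, and no measured value entered the choice. There were 4879 such peaks among the 35486 listed peaks (13.7%). H3K4me3 was profiled by CUT&Tag, in which an enzyme tethered to an antibody cuts the DNA beside the marked nucleosomes, so that reads collect where the mark lies. The KL libraries (replicates 1 and 2) came from tumor-bearing Lkb1fl/fl mice, in which inhaled Ad-Cre deletes Lkb1, and the KLG4m/m libraries (replicates 3 and 4) came from mice of the same model that also carried Gpx4m/m. In the Gpx4m/m allele Cre switches on a drug-inducible Dre recombinase, and tamoxifen then deletes part of Gpx4, the glutathione peroxidase that protects membranes from lipid peroxidation. Mice of both genotypes received Ad-Cre and tamoxifen, and primary CD45-CD31-EpCAM+ cells were sorted from lungs with tumors 10 weeks after Ad-Cre, 1000000 cells per mouse. The labels list 2 H3K4me3 libraries per group, and the study's figure legend gives as many mice per group, although its protocol speaks of another total of mice. The p-values measure the spread between these libraries. H3K27ac was not analysed here.

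H3K4me3, trimethylation of lysine 4 of histone H3, is laid down by the SET1 and MLL family of methyltransferases, largely where CpG-rich DNA recruits them, and its highest levels lie at the promoters of active genes. Inside gene bodies the mark is usually sparse, and intronic H3K4me3 is known from alternative promoters, from start sites of noncoding and microRNA transcripts and, at lower levels, from strong enhancers, which are better known for H3K4me1 and H3K27ac. First introns often carry the shoulder of the promoter signal, which is why introns further down the gene are described apart from them.

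The depth of the libraries was similar, with 3244495 to 3463731 reads in the listed peaks, of which 151754 to 161147 fell in later-intron peaks. Over later-intron peaks the chi-square per degree of freedom was 1.08 between the KL libraries, 1.15 between the KLG4m/m libraries and 1.98 to 2.14 between libraries of different groups, so libraries of a group differed by slightly more than sampling noise. The Gpx4 promoter peak held 242 and 236 reads in the KL and 304 and 301 reads in the KLG4m/m libraries (log2 fold change 0.40 ± 0.09 (SE), adjusted p = 0.00854, edgeR). It lies outside the deleted exons and does not check the deletion. Of the promoters of the marker lists, 7 of 8 epithelial and 7 of 10 alveolar type 2 genes had a peak within 1 kb of the start, and among the genes without one were Sftpc and Sftpd, which encode surfactant proteins. Promoter peaks of leukocyte genes were present too, although the cells were sorted as CD45-negative.

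Some later-intron peaks lay nearest to the start of a microRNA gene and not to that of the host, and the mature sequences are shown to identify the microRNAs nearest to changed peaks. The table assigned 117 later-intron peaks to 78 microRNA genes, and RefSeq (GRCm38.p6) held mature sequences for 67 of these genes. Of these peaks 4 were higher and 6 lower in KLG4m/m cells (3.42% and 5.13%), near the 3.1% and 5.52% of all listed peaks that passed the test in each direction. The sequences below, 5′ to 3′, belong to the 5 microRNA genes within 10 kb of such a peak, and capitals mark the seed (bases 2 to 8). No 2 of the 16 mature sequences of all 10 microRNA genes shared a seed.
mmu-miR-7662-5p: aGGGCUGAggccuggauccagc
mmu-miR-7662-3p: uGGAGCCAggcggaucagccuugc
mmu-miR-6943-5p: uGGGGUGAgguuggaagcua
mmu-miR-6943-3p: cUGCUUCCauaccccuacccag
mmu-miR-1190: uCAGCUGAgguuccccucuguc
mmu-miR-681: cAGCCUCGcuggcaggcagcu
mmu-miR-7009-5p: uUGGGGUCaggggaccagagcu
mmu-miR-7009-3p: uCUUUUCCccucucccugcag

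At 3.29 kb from the start of Mir7662, in intron 5 of Tspan15 (a tetraspanin that partners the protease ADAM10), the peak held 6 and 3 reads in KL and 15 and 13 reads in KLG4m/m cells (log2 fold change 1.67 ± 0.53 (SE), adjusted p = 0.0475). At 3.11 kb from the start of Mir6943, in intron 2 of Grk6 (a kinase of activated G protein-coupled receptors), there were 57 and 69 reads in KL and 110 and 92 reads in KLG4m/m cells (log2 fold change 0.74 ± 0.17 (SE), adjusted p = 0.00655). At 5.46 kb from the start of Mir1190, in intron 3 of Ccdc88c (DAPLE, a Dishevelled-binding protein of Wnt signalling), there were 85 and 95 reads in KL and 122 and 117 reads in KLG4m/m cells (log2 fold change 0.47 ± 0.15 (SE), adjusted p = 0.0460). These 3 peaks were higher in both KLG4m/m libraries than in either KL library, with the fewest reads at Mir7662. The peak 7.5 kb from Mir7009, in intron 2 of Anxa5 (annexin A5, which binds phosphatidylserine), moved the other way, with 52 and 49 reads in KL and 13 and 18 reads in KLG4m/m cells (log2 fold change -1.64 ± 0.27 (SE), adjusted p = 0.000389), and so did the peak 5.75 kb from Mir681 in intron 3 of Cdkl1, with 54 and 42 reads in KL and 24 and 27 reads in KLG4m/m cells (log2 fold change -0.85 ± 0.25 (SE), adjusted p = 0.0314). All adjusted p-values of single peaks are from edgeR's quasi-likelihood test over all listed peaks.

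The promoters of 4 host genes are shown because a later-intron peak and the strongest promoter peak of each gene both passed the test. They cover the 4 possible combinations of direction. For each combination the later-intron peak with the largest change and a promoter in the table was taken. The sequences are RefSeq promoters of GRCm38.p6, 300 bases of which the last 50 follow the start, with each CpG in capitals.
Prkcb, chr7:122288875-122289174, plus strand: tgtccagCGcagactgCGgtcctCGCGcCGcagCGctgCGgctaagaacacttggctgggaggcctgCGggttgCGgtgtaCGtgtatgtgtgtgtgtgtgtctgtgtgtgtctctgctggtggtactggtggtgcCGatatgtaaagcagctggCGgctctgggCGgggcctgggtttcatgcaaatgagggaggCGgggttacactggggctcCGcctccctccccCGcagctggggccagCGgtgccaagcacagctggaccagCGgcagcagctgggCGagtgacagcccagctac
Slc35e3, chr10:117746309-117746608, minus strand: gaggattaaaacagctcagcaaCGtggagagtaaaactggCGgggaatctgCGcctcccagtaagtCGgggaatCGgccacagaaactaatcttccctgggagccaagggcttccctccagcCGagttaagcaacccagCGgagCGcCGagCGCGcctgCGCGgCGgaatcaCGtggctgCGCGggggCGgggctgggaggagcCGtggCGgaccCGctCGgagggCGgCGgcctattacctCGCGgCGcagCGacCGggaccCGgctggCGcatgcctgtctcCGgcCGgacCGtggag
Creg2, chr1:39651133-39651432, minus strand: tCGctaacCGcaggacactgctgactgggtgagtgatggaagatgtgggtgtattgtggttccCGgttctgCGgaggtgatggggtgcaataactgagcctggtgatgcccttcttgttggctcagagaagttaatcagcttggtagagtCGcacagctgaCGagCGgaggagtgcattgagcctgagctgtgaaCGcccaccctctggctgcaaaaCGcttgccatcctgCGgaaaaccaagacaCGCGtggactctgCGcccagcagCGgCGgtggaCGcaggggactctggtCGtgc
Mamld1, chrX:71050006-71050305, plus strand: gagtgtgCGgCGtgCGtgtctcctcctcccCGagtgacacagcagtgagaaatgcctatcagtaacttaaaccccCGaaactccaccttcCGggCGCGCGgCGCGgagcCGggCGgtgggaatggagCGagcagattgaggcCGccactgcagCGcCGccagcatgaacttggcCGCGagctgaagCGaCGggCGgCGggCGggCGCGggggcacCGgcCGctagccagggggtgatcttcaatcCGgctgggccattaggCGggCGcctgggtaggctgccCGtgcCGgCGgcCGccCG

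These promoters held 19 (Prkcb), 34 (Slc35e3), 17 (Creg2) and 36 (Mamld1) CpGs, against a median of 7 over the 32851 promoters of the table. All 4 were chosen for an H3K4me3 promoter peak, and promoters with such a peak were not taken as the background. The contrast therefore says nothing about the changes in these genes. In Prkcb, which encodes protein kinase C beta, an intron 2 peak held 5 and 12 reads in KL and 21 and 23 reads in KLG4m/m cells (log2 fold change 1.42 ± 0.41 (SE), adjusted p = 0.0303), and its promoter peak held 38.8 and 34 CPM in KL and 54.5 and 50.2 CPM in KLG4m/m (log2 fold change 0.52, adjusted p = 0.00960). In Mamld1, a gene with a mastermind-like domain, the intron 5 peak held 16 and 20 reads in KL and 6 and 3 reads in KLG4m/m cells (log2 fold change -1.91 ± 0.50 (SE), adjusted p = 0.0156), and its promoter peak held 17.5 and 20.2 CPM in KL and 10.7 and 12.4 CPM in KLG4m/m (log2 fold change -0.71, adjusted p = 0.0306). Intron and promoter thus moved the same way in Prkcb and Mamld1. They moved in opposite directions in Slc35e3, of the nucleotide-sugar transporter family, where the intron 4 peak held 7 and 8 reads in KL and 23 and 26 reads in KLG4m/m cells (log2 fold change 1.75 ± 0.39 (SE), adjusted p = 0.00550) and its promoter peak held 17 and 23.9 CPM in KL and 13.3 and 10.2 CPM in KLG4m/m (log2 fold change -0.79, adjusted p = 0.0220). In Creg2, a secreted glycoprotein gene, the intron 2 peak fell from 30 and 36 to 17 and 13 reads (log2 fold change -1.07 ± 0.30 (SE), adjusted p = 0.0268), while its promoter peak held 19.8 and 18.4 CPM in KL and 23.2 and 34.1 CPM in KLG4m/m (log2 fold change 0.57, adjusted p = 0.0492).

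Later-intron peaks were weak. The median peak held 21.2 reads per library (interquartile range 15.2 to 34.2), close to first-intron peaks (25.2) and distal intergenic peaks (23), and below promoter peaks within 1 kb of a start (141). Every peak in the table is listed with a width of 400 bp, so reads can be compared between peaks. Of the 4879 later-intron peaks, 3367 (69%) had a mean under 30 reads. They lay in 2843 host genes, 1897 of which held a single later-intron peak and 20 of which held 10 or more. The second intron held 36.5% of them, the third 17.7% and introns 7 and beyond 24.7%, and 15.7% lay in the last intron of the transcript. The distance to the nearest annotated start ranged from 3 to 272 kb with a median of 15.2 kb. Peaks within 3 kb of a start are annotated as promoter, which sets the lower end. The gene with that start was the host itself for 2609 peaks and another gene for 2270, so the host and the gene to which the table assigned the peak are both named below where they differ.

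Between the groups, 147 later-intron peaks were higher and 126 lower in KLG4m/m than in KL cells at an adjusted p under 0.05 (edgeR's quasi-likelihood test, all listed peaks). These are 3.01% and 2.58% of the class, while over all listed peaks 3.1% were higher and 5.52% were lower. The share of higher peaks was thus near the background, and the share of lower peaks was about that of first-intron (2.52%) and distal intergenic peaks (2.39%) and under that of promoter peaks within 1 kb (8.43%). No test of these differences between classes was made. The median log2 fold change was 0.00530 in later-intron peaks and 0.00771 in all listed peaks. Of the later-intron peaks 1027 had an unadjusted p under 0.05. The calls rested on both KLG4m/m libraries: without replicate 3 or without replicate 4 edgeR called 0 later-intron peaks, with 599 and 674 at an unadjusted p under 0.05, and without KL replicate 1 or 2 it called 157 and 124. DESeq2 on all 4 libraries called 4, in Chl1, Snd1, Camk2b and Anxa5, and limma called 232. DESeq2 gave no adjusted p for 2997 later-intron peaks, so a peak without a DESeq2 call, here and below, may not have been judged by it.

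By position in the gene, the counts were as follows. In intron 2, 56 peaks were higher and 40 lower of 1779 (3.15% and 2.25%). In intron 3 the order turned, with 18 higher and 31 lower of 864 (2.08% and 3.59%). Introns 4 to 6 held 37 higher and 25 lower peaks of 1032, and introns 7 and beyond 36 and 30 of 1204. No difference between these groups was tested. Peaks under 10 kb from an annotated start were called higher in 3.7% and lower in 2.68% of cases. At 30 kb or more these shares were 1.93% and 3.3%. Whether the assigned gene was the host or a neighbor left the share of higher peaks at 2.99% and 3.04%.

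The strength of the peak went with the direction of the change. Among the 161 later-intron peaks with a mean over 100 reads, 23 were higher in KLG4m/m cells (14.3%) and 0 lower by edgeR (2 lower at an unadjusted p under 0.05, none by DESeq2). From 50 to 100 reads 29 were higher and 5 lower of 507, and from 30 to 50 reads 35 and 15 of 844. Under 30 reads the order turned, with 60 higher and 106 lower of 3367. The median log2 fold change went from -0.19 under 12 reads to 0.13 over 100 reads. For peaks of 50 reads or more it was 0.14 and stayed between 0.11 and 0.14 when each library was left out in turn. First-intron peaks over 100 reads were higher in 10.8% and lower in 1.81%, distal intergenic peaks in 6.01% and 2.7%, and promoter peaks within 1 kb in 2.82% and 7.91%. The plot of fold change by strength shows the spread within the class, and the plot of calls by strength sets it beside the other classes.

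**Figure D1:**
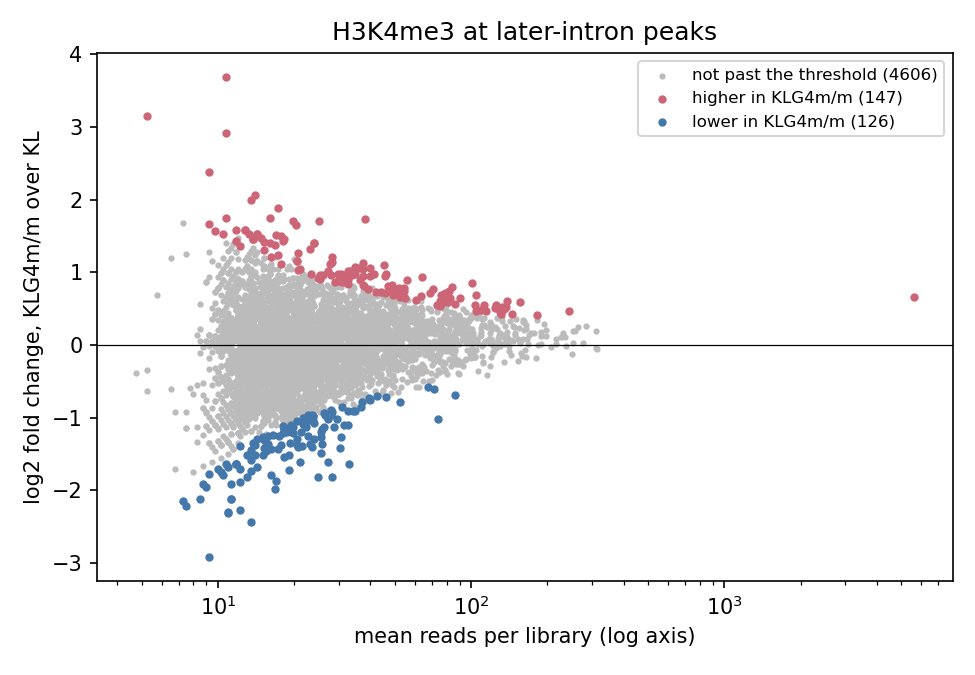
Each point is 1 of the 4879 later-intron peaks, with its mean reads per library on a log axis and its log2 fold change, KLG4m/m over KL; colors mark peaks past an adjusted p of 0.05 by edgeR. The 126 lower peaks sit mostly among weak peaks, no peak over 100 reads is among them, and the single point above 1000 reads is the Chl1 peak.

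**Figure D2:**
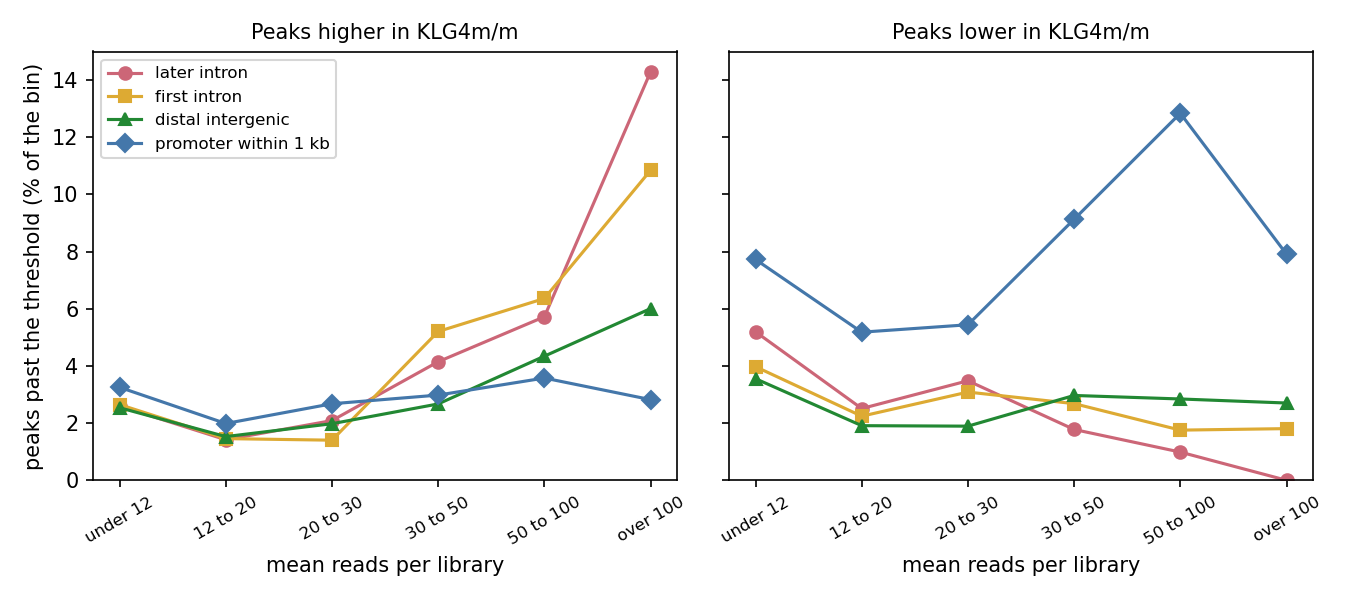
Share of peaks past the threshold (%, y axis) in each bin of mean reads per library (x axis), for later-intron, first-intron, distal intergenic and promoter peaks. The share of later-intron peaks higher in KLG4m/m cells goes from 1.42% at 12 to 20 reads to 14.3% over 100 reads.

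Later-intron peaks, like first-intron and distal intergenic peaks, took a slightly larger share of the reads in KLG4m/m cells. For later-intron peaks the share of all reads in listed peaks was 4.5% and 4.49% in the KL libraries and 4.67% and 4.68% in the KLG4m/m libraries. The groups did not overlap (mean 4.5% ± 0.00624 against 4.67% ± 0.00846, SD, n = 2 each). The exact permutation test gave a two-sided p of 0.333, which is the smallest p that 2 against 2 libraries allow. A single peak, in intron 4 of Chl1, held 2.77% to 4.5% of the reads of the class, and without it the shares were 4.38% and 4.36% in the KL libraries and 4.46% and 4.49% in the KLG4m/m libraries. The difference between the means was then 0.100 percentage points instead of 0.173. Strong and weak peaks went opposite ways. Peaks of 50 reads or more without Chl1 took 1.64% and 1.62% in the KL libraries and 1.76% and 1.79% in the KLG4m/m libraries, whereas peaks under 30 reads took 1.82% and 1.82% in the KL libraries and 1.74% and 1.73% in the KLG4m/m libraries. In neither set did the groups overlap. First-intron peaks took 3.27% and 3.23% in the KL libraries and 3.4% and 3.4% in the KLG4m/m libraries. Distal intergenic peaks took 6.18% and 6.21% in the KL libraries and 6.45% and 6.36% in the KLG4m/m libraries. Promoter peaks within 1 kb took less in KLG4m/m cells, with 77.6% and 77.7% in the KL libraries and 76.9% and 76.9% in the KLG4m/m libraries. The shares of all classes have a fixed total. A larger share of later-intron peaks therefore cannot be told apart from a smaller share of promoter peaks.

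**Figure D3:**
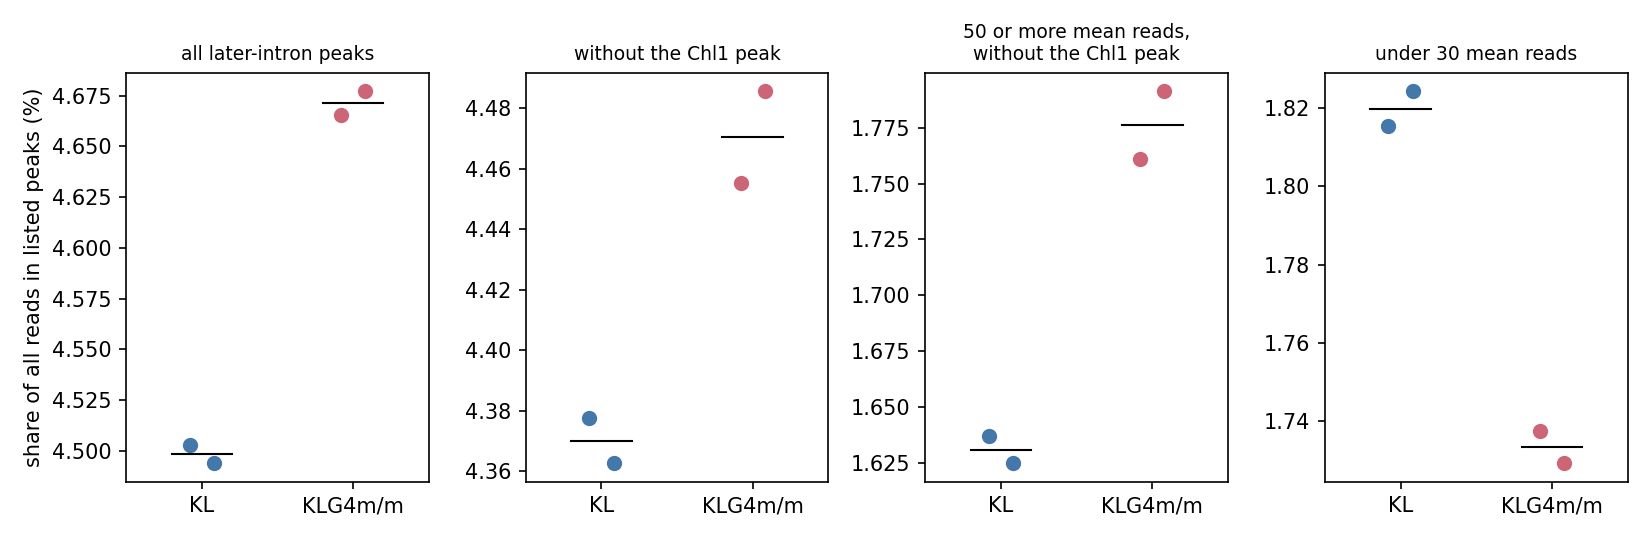
Share of all reads in listed peaks (%, y axis, a separate scale for each panel that does not start at 0) for all later-intron peaks, without the Chl1 peak, for those of 50 or more mean reads and for those under 30. Points are libraries and bars are group means; KLG4m/m libraries are above KL libraries in the first 3 panels and below them in the last.

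The strongest later-intron peak lay in intron 4 of 27 of Chl1, the close homolog of the neural adhesion molecule L1 (chr6:103625956-103626356 as the table lists it, 42.4 kb from the start of the assigned gene Gm52915). It held 4325 and 4542 reads in KL and 7258 and 6217 reads in KLG4m/m cells, or 1276 ± 45.3 CPM in KL and 2015 ± 127 CPM in KLG4m/m (SD, n = 2 each) (log2 fold change 0.66 ± 0.06 (SE), adjusted p = 7.7e-08). It was the only listed peak within 100 kb of itself. KLG4m/m replicate 3 was the highest library and the KL libraries were close to each other. DESeq2 called it too (log2 fold change 0.66, adjusted p = 3.2e-20), while its adjusted p was 0.337 at most over the alternatives, reached when a KLG4m/m library was left out. The next strongest later-intron peak held 314 reads on average. The Chl1 peak, with a mean of 5585.5 reads, was above every promoter peak within 1 kb (at most 3319.75). The strongest distal intergenic and promoter-flank peaks held more (8010.25 and 13960.25). Why the Chl1 peak was so strong was not tested.

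The 5 peaks that followed in strength did not pass the test. They lay in Rslcan18 (a KRAB zinc finger gene), in Arid1b (a subunit of the BAF chromatin remodelling complex), in Chd2 (a chromodomain helicase) and in the predicted genes Gm30771 and Gm36876. The Rslcan18 peak held 322 and 333 against 305 and 298 reads, KL first (adjusted p = 0.712, edgeR), and the Chd2 peak, 3.7 kb from the nearest promoter peak of its own gene, held 328 and 314 against 285 and 316 reads (adjusted p = 0.850). In Gm30771, next to Ccne1, there were 290 and 239 against 318 and 290 reads (adjusted p = 0.102). The groups overlapped in Chd2, and in Gm30771 KL replicate 1 and KLG4m/m replicate 4 held equal numbers of reads.

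The largest increases were taken from the peaks that passed the test, whose groups did not overlap and whose mean reached 5 CPM in either group. The first lay in intron 4 of 5 of Ccnjl, a cyclin J-like gene (chr11:43470838-43471238, assigned to Fabp6, an ileal bile acid carrier, 21.2 kb away), with 0 and 3 reads in KL and 16 and 24 reads in KLG4m/m cells. With so few KL reads no fold change is given, and the ratio of the group totals, each over its summed library sizes, was 13.8 with a 95% exact counting interval of 4.39 to 69.7 (adjusted p = 0.000854, edgeR). In intron 15 of 19 of Tmem87a, which encodes a Golgi membrane protein (chr2:120197764-120198164), there were 2 and 3 reads in KL and 19 and 19 reads in KLG4m/m cells, a ratio of 7.86 with an interval of 3.09 to 25.6 (adjusted p = 0.00119). Both peaks were close to empty in KL cells, and 0 of 4 and 0 of 3 other listed peaks within 100 kb were higher.

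2 of the increases lay in genes of kinases. The intron 2 peak of Prkce, which encodes protein kinase C epsilon (chr17:86683759-86684159), held 3 and 8 reads in KL and 28 and 17 reads in KLG4m/m cells (log2 fold change 2.06 ± 0.46 (SE), adjusted p = 0.00579). The intron 2 peak of Dapk2, a calmodulin-regulated death-associated kinase (chr9:66109650-66110050), held 7 and 4 reads in KL and 30 and 13 reads in KLG4m/m cells (log2 fold change 2.00 ± 0.48 (SE), adjusted p = 0.00989). In both genes KLG4m/m replicate 3 was well above replicate 4, and the listed peak nearest to that of Prkce, 23.5 kb away in the first intron, was also higher (log2 fold change 1.24, adjusted p = 0.00238).

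Snd1, which encodes a nuclease-domain protein of RNA silencing and transcription, held the strongest of the 10, in its last intron (chr6:28927986-28928386, 3.68 kb from the start of the predicted gene Gm53277). There were 19 and 17 reads in KL and 53 and 63 reads in KLG4m/m cells, or 5.18 ± 0.402 CPM in KL and 17.4 ± 2.92 CPM in KLG4m/m (SD, n = 2 each) (log2 fold change 1.74 ± 0.26 (SE), adjusted p = 9.2e-05). A listed peak 1.17 kb away in the promoter flank of Gm53277 rose with it (log2 fold change 1.01, adjusted p = 0.00229), and DESeq2 called the Snd1 peak too (adjusted p = 0.00836). The lowest KLG4m/m library held far more reads than the highest KL library.

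Sox2ot is the noncoding transcript in whose intron the single-exon gene Sox2 lies, a transcription factor of airway basal cells and squamous tumors. Its intron 4 peak, 7.18 kb from the Sox2 start (chr3:34711323-34711723), held 10 and 14 reads in KL and 41 and 35 reads in KLG4m/m cells (log2 fold change 1.71 ± 0.31 (SE), adjusted p = 0.000865). The other Sox2ot later-intron peaks held 11 and 20 against 21 and 28 reads (log2 fold change 0.71, adjusted p = 0.199) and 39 and 56 against 57 and 53 reads (log2 fold change 0.27, adjusted p = 0.461). The Sox2 promoter peak was the nearest listed peak and did not pass the test (log2 fold change 0.55, adjusted p = 0.241), so of the 4 listed peaks within 100 kb only this one did.

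The rest of the 10 were weak in KL cells. They lay in Dscaml1, a neuronal adhesion molecule of the immunoglobulin superfamily (7 and 8 against 29 and 25 reads, log2 fold change 1.89 ± 0.38 (SE), adjusted p = 0.00217), in Snap47, a SNARE protein (8 and 11 against 30 and 30 reads, log2 fold change 1.70 ± 0.35 (SE), adjusted p = 0.00261), in Dtd1, which clears D-amino acids from tRNA (12 and 8 against 29 and 32 reads, log2 fold change 1.65 ± 0.34 (SE), adjusted p = 0.00321), and in Slc35e3, described above. The Dscaml1 peak had no other listed peak within 100 kb. In Snap47 the nearest later-intron peak, 3.1 kb away, had a log2 fold change of 0.96 and did not pass (adjusted p = 0.0922). The plot of the named peaks gives each library's value.

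The largest decreases, taken by the same rule, held at most 31 reads in any KL library. Zfhx3, a large zinc finger and homeobox transcription factor, held 2 of the 10. Its intron 4 peak (chr8:109486042-109486442) held 21 and 25 reads in KL and 1 and 7 reads in KLG4m/m cells (log2 fold change -2.43 ± 0.51 (SE), adjusted p = 0.00356). Its intron 7 peak (chr8:109637650-109638050, assigned to Mir3108) held 18 and 21 reads in KL and 3 and 7 reads in KLG4m/m cells (log2 fold change -1.88 ± 0.48 (SE), adjusted p = 0.0142). The other 9 later-intron peaks of Zfhx3 did not pass the test, among them the strongest, with 113 and 115 against 118 and 109 reads (log2 fold change 0.05), and the nearest to the intron 4 peak, 5.23 kb away, with 36 and 36 against 26 and 36 reads (log2 fold change -0.16). Over all 11 the median log2 fold change was -0.15. Of the 2 Zfhx3 promoter peaks 1 was lower (log2 fold change -0.72, adjusted p = 0.0336), and the other had a log2 fold change of -0.35.

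In Tcf7l1, a TCF factor that mostly represses Wnt target genes, the intron 3 peak (chr6:72706899-72707299) held 22 and 15 reads in KL and 4 and 3 reads in KLG4m/m cells (log2 fold change -2.31 ± 0.52 (SE), adjusted p = 0.00620), and 1 of 10 other listed peaks within 100 kb was lower. The nearest, 5.25 kb away and also in Tcf7l1, had a log2 fold change of -0.03 (adjusted p = 0.969). In Bbs5, a subunit of the BBSome of the cilium, the intron 9 peak (chr2:69494298-69494698, assigned to Klhl41) held 24 and 30 reads in KL and 8 and 6 reads in KLG4m/m cells (log2 fold change -1.87 ± 0.39 (SE), adjusted p = 0.00314).

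The others lay in Il1rapl1, a synaptic receptor of the interleukin-1 receptor family (24 and 13 against 3 and 4 reads, log2 fold change -2.30 ± 0.54 (SE), adjusted p = 0.00794), in Fam234b (31 and 23 against 5 and 8 reads, log2 fold change -1.98 ± 0.40 (SE), adjusted p = 0.00279), in Mamld1 (above) and in the noncoding or predicted genes G730013B05Rik (21 and 20 against 5 and 3 reads, log2 fold change -2.27 ± 0.48 (SE), adjusted p = 0.00393) and Gm39850 (15 and 22 against 5 and 3 reads, log2 fold change -2.12 ± 0.51 (SE), adjusted p = 0.00938). The KL libraries differed from each other by up to 24 against 13 reads, at Il1rapl1, where the KLG4m/m libraries held 3 and 4. Il1rapl1 had no other listed peak within 100 kb.

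**Figure D4:**
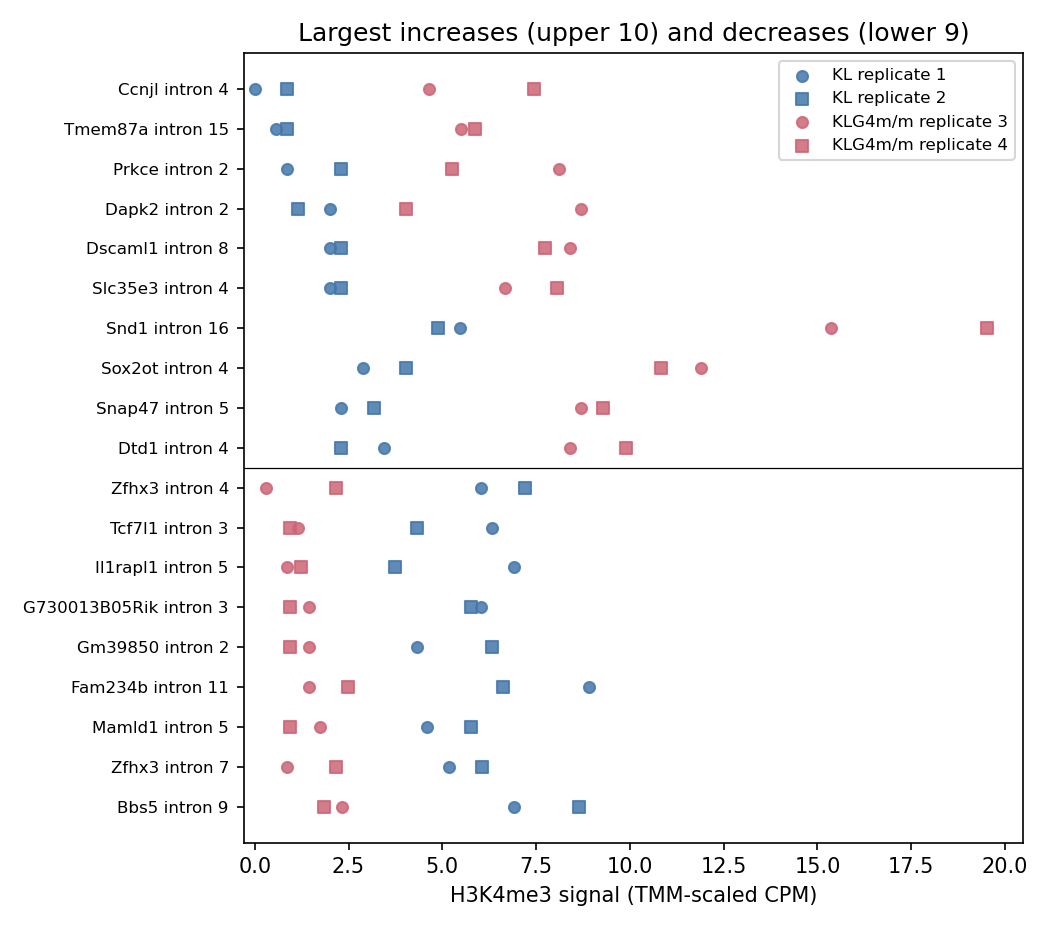
H3K4me3 signal in TMM-scaled CPM (x axis) of each library at the later-intron peaks that rose most (10) and at 9 of the 10 that fell most. Blue points are KL and red points KLG4m/m libraries; the groups do not overlap, as the rule required, and the highest KLG4m/m value among the decreases is 2.48 CPM.

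Most later-intron peaks had a promoter peak of the same gene to set beside them. For 3785 of 4879 later-intron peaks the host had a listed peak within 1 kb of its start, and the later-intron peak held a median of 0.153 times the reads of the strongest of these. Only this strongest promoter peak was counted, so a weaker one, such as the lower one of Zfhx3, was left out. For the 113 higher later-intron peaks with a host promoter peak, it was higher for 13 and lower for 12 (11.5% and 10.6%). For the 97 lower ones, it was higher for 1 and lower for 13 (1.03% and 13.4%). Over all later-intron peaks with a host promoter peak these shares were 3.78% and 10.8%. Peaks of the same gene share a promoter. By host the counts were 8 and 12 of 101 for the higher peaks and 1 and 13 of 94 for the lower ones. Over all hosts with a promoter peak they were 69 and 225 of 2087. Most called later-intron peaks with a host promoter peak therefore lay in genes whose strongest promoter peak did not pass the test.

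The next genes were chosen as examples after their values were seen. Among genes in which both fell, Camk2b, a calcium/calmodulin-dependent kinase, held 45 and 44 reads in KL and 12 and 12 reads in KLG4m/m cells in intron 3 (log2 fold change -1.82 ± 0.29 (SE), adjusted p = 0.000250), and its promoter peak held 5.47 and 6.62 CPM in KL and 2.03 and 2.17 CPM in KLG4m/m (log2 fold change -1.51, adjusted p = 0.0228). Ret, a receptor tyrosine kinase of neuroendocrine cells, held 36 and 27 against 12 and 11 reads in intron 17 (log2 fold change -1.39 ± 0.33 (SE), adjusted p = 0.00890), and Acvr1, a receptor of bone morphogenetic proteins, 37 and 35 against 14 and 17 reads in intron 2 (log2 fold change -1.15 ± 0.29 (SE), adjusted p = 0.0143). Their promoter peaks had log2 fold changes of -0.73 and -0.77. In all 3 genes both KLG4m/m libraries were below both KL libraries.

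In other genes the promoter was lower while the intron was higher. Nudt3, a diphosphoinositol polyphosphate phosphohydrolase, held 24 and 31 reads in KL and 43 and 51 reads in KLG4m/m cells in intron 2 (log2 fold change 0.83 ± 0.25 (SE), adjusted p = 0.0344), while its promoter peak held 61.9 and 59 CPM in KL and 30.7 and 24.2 CPM in KLG4m/m (log2 fold change -1.13, adjusted p = 4.7e-06). Igf2r, the receptor that clears IGF2 and sorts lysosomal enzymes, held 12 and 11 against 27 and 21 reads in intron 40 of 47 (log2 fold change 1.11 ± 0.35 (SE), adjusted p = 0.0469), beside a promoter change of -0.99 on the log2 scale (adjusted p = 0.00250). Sema7a, a membrane-anchored semaphorin, held 27 and 26 against 58 and 48 reads in intron 7 (log2 fold change 1.05 ± 0.23 (SE), adjusted p = 0.00522), beside a promoter change of -0.69 (adjusted p = 0.00611).

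Higher and lower later-intron peaks could lie in the same gene. The 147 higher peaks lay in 132 hosts and the 126 lower peaks in 123, and 4 hosts held both: Prkca, Prkce, Rptor and Macf1. In Prkca, which encodes protein kinase C alpha, an intron 2 peak held 69 and 73 against 107 and 95 reads (log2 fold change 0.56 ± 0.16 (SE), adjusted p = 0.0260), and another in the same intron held 35 and 32 against 11 and 14 reads (log2 fold change -1.36 ± 0.32 (SE), adjusted p = 0.00768). In Rptor, the raptor subunit of mTORC1, the intron 3 peak held 29 and 22 against 11 and 10 reads (log2 fold change -1.21 ± 0.36 (SE), adjusted p = 0.0328), whereas the intron 17 and 23 peaks held 8 and 11 against 27 and 25 reads and 9 and 9 against 19 and 24 reads and were higher (adjusted p = 0.00940 and 0.0360). In Macf1, which links actin and microtubules, intron 2 peaks held 108 and 116 against 143 and 157 reads and 37 and 28 against 15 and 11 reads (log2 fold changes 0.48 and -1.26).

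In other genes several peaks rose together. These genes were named after their values were seen. Map3k9, a kinase upstream of JNK, had 5 later-intron peaks over 17.9 kb of intron 2, of which 4 were higher, with log2 fold changes over all 5 from 0.24 to 1.13. The strongest held 69 and 57 reads in KL and 88 and 92 reads in KLG4m/m cells (log2 fold change 0.57 ± 0.17 (SE), adjusted p = 0.0375). The promoter peak of Map3k9 was higher too (log2 fold change 0.35, adjusted p = 0.0455). Tiam1, an exchange factor of the GTPase Rac, had 3 higher peaks of 7, the strongest with 68 and 58 reads in KL and 96 and 115 reads in KLG4m/m cells (log2 fold change 0.80 ± 0.17 (SE), adjusted p = 0.00423). In its intron 12 peak, which did not pass, KLG4m/m replicate 3 held 62 and replicate 4 held 21 reads. The 3 promoter peaks of Tiam1 had log2 fold changes from -0.01 to 0.63 and a smallest adjusted p of 0.0127. Cux1, a homeobox transcription factor, had 3 higher peaks of 4 within 7.3 kb of intron 2 (log2 fold changes 0.32 to 1.13), and its promoter peak did not pass (log2 fold change -0.20, adjusted p = 0.444). Neighboring peaks of a gene share its chromatin and are not replicates of each other.

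In the 3 genes with the most later-intron peaks, at most 1 peak each passed the test. Pde4d, a cyclic AMP phosphodiesterase with many promoters, held 16 over 669.8 kb, 2 of them at an unadjusted p under 0.05. The strongest held 148 and 139 reads in KL and 155 and 134 reads in KLG4m/m cells (log2 fold change 0.07, adjusted p = 0.791), and 1 weak peak passed the test, with 22 and 28 against 13 and 9 reads (log2 fold change -1.12 ± 0.36 (SE), adjusted p = 0.0487). Prkch, which encodes protein kinase C eta of epithelia, held 15 over 158 kb and 0 passed by edgeR or DESeq2 (0 at an unadjusted p under 0.05), with log2 fold changes from -0.93 to 0.64 and a smallest adjusted p of 0.266. Arid1b held 15 over 221 kb with a median log2 fold change of 0.16, 6 of them at an unadjusted p under 0.05, and 1 in intron 2 was higher, with 19 and 26 against 45 and 43 reads (log2 fold change 1.02 ± 0.26 (SE), adjusted p = 0.0135). The plot of these genes shows fold changes on both sides of 0 along each of them.

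**Figure D5:**
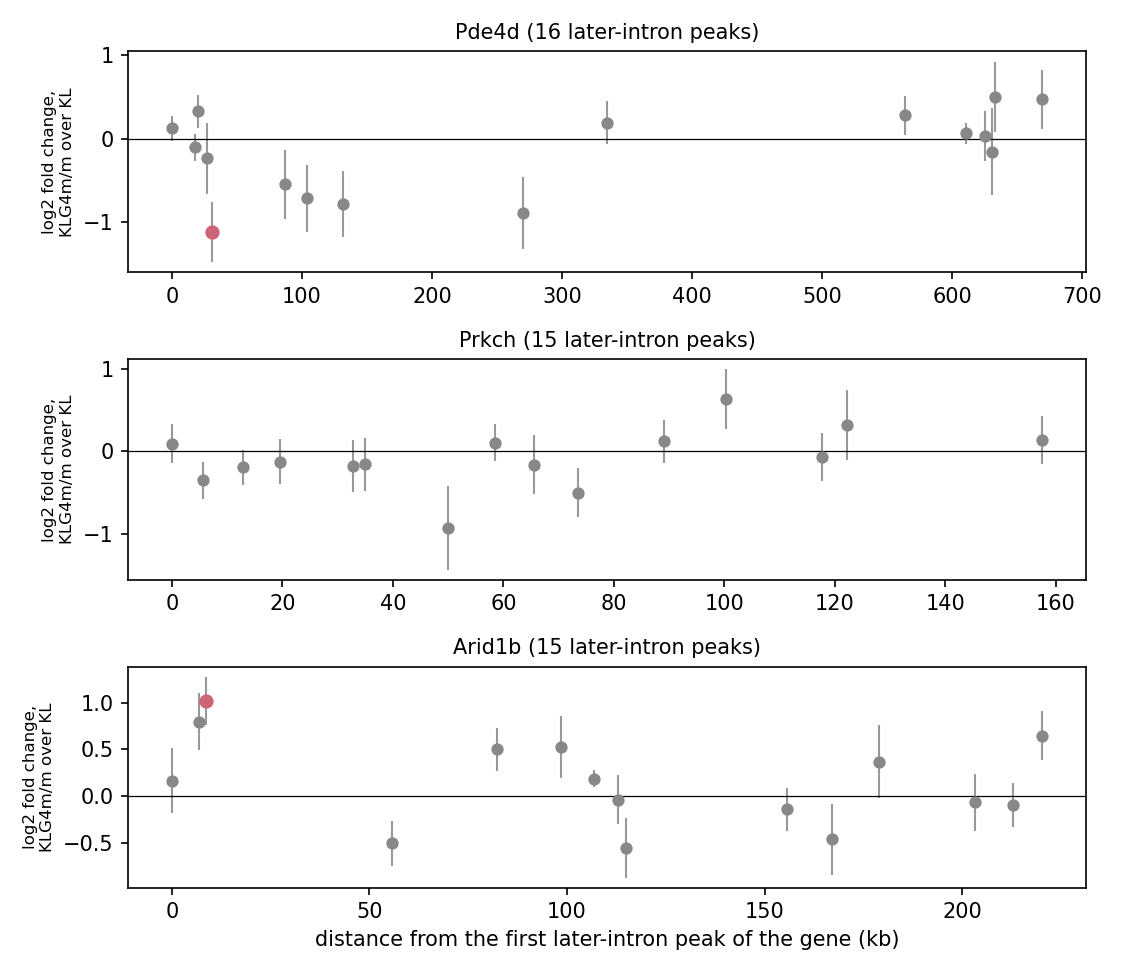
Log2 fold change, KLG4m/m over KL, with its standard error from edgeR (y axis) of each later-intron peak of Pde4d, Prkch and Arid1b, against the distance in kb from the first such peak of the gene (x axis). Red points passed an adjusted p of 0.05, 1 in Pde4d and 1 in Arid1b.

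Lists of genes by function were read by counts, a peak counting for a list where its host or its assigned gene was in it. The lung and endoderm transcription factors had 2 higher and 1 lower of 41 peaks (4.88% and 2.44%). Over all listed peaks 3.1% were higher and 5.52% lower. The median log2 fold change of the list was -0.32 against 0.00771 over all listed peaks, with 14 of the 41 above 0. Beside Sox2ot, the higher peak was in intron 13 of Foxp4, a forkhead factor of lung epithelium, with 39 and 51 reads in KL and 86 and 79 reads in KLG4m/m cells (log2 fold change 0.93 ± 0.19 (SE), adjusted p = 0.00278). Foxp1, its paralog, had a lower peak in intron 5, with 30 and 31 reads in KL and 11 and 17 reads in KLG4m/m cells (log2 fold change -1.06 ± 0.32 (SE), adjusted p = 0.0384). The median peak of this list held 19.5 reads.

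Genes of the TGF-beta, Wnt, Notch and Hippo pathways had 2 higher and 2 lower of 58 peaks (3.45% each, median log2 fold change -0.01). Over all listed peaks 3.1% were higher and 5.52% lower, so the list was not above that background by much in either direction. Beside the lower Tcf7l1 peak, a single Tcf7l2 peak was higher. This peak, in intron 4, held 53 and 54 reads in KL and 95 and 80 reads in KLG4m/m cells (log2 fold change 0.77 ± 0.18 (SE), adjusted p = 0.00710). Smad6, an inhibitor of bone morphogenetic protein signalling, had a lower peak in its last intron, with 25 and 26 reads in KL and 10 and 8 reads in KLG4m/m cells (log2 fold change -1.43 ± 0.37 (SE), adjusted p = 0.0143). The receptor Notch1 had a higher peak in intron 4, beside Mir6996, with 129 and 124 reads in KL and 163 and 164 reads in KLG4m/m cells (log2 fold change 0.43 ± 0.13 (SE), adjusted p = 0.0336). The other Notch1 later-intron peaks held 70 and 63 against 93 and 89 reads and 94 and 63 against 103 and 98 reads and had log2 fold changes of 0.51 and 0.41 without passing (adjusted p = 0.0542 and 0.134).

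The study asked whether histone marks changed at genes of triacylglycerol synthesis, which stores fatty acids as neutral lipid. It reported increases of H3K4me3 and H3K27ac at the Dgat2 and Gpd1l loci, with ChIP-qPCR primers designed for their promoters. Later-intron peaks are only a part of each gene and do not test that result. In later introns, the list of these genes had 0 higher and 1 lower of 15 peaks (median log2 fold change -0.05). This 1 of 15 (6.67%) is near the 5.52% of all listed peaks that were lower. Dgat2, which catalyzes the last step, hosted a later-intron peak with 44 and 54 reads in KL and 40 and 51 reads in KLG4m/m cells (log2 fold change -0.05 ± 0.22 (SE), adjusted p = 0.919), assigned to Uvrag, and the groups overlapped. Agpat4, an acyltransferase that makes phosphatidic acid, hosted 4 peaks with log2 fold changes of -0.36 to 0.80 and adjusted p of 0.303 or more. A peak in the last intron of Ccdc134 was assigned to Srebf2, the master regulator of cholesterol synthesis, and held 19 and 12 reads in KL and 17 and 18 reads in KLG4m/m cells (log2 fold change 0.23 ± 0.36 (SE), adjusted p = 0.742). The strongest peak of the list was in Mogat1, a monoacylglycerol acyltransferase, with 95 and 88 against 89 and 96 reads (adjusted p = 0.815). The single peak past the test was in the last intron of Plpp3, a phosphatidate phosphatase, with 13 and 18 reads in KL and 6 and 3 reads in KLG4m/m cells (log2 fold change -1.70 ± 0.52 (SE), adjusted p = 0.0399). No later-intron peak was hosted by or assigned to Gpd1l, Plpp1, Pla2g4a or Gpam. Of the 29 promoter peaks of the list within 1 kb of a start, 5 were higher and 2 lower by edgeR. Over all such promoter peaks 2.89% were higher and 8.43% lower.

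The remaining lists held few calls, beside 3.1% higher and 5.52% lower over all listed peaks. Cell adhesion, polarity and junction genes had 1 higher and 0 lower of 30 peaks (3.33% higher). The higher peak was in intron 26 of Itga2, the integrin alpha 2 collagen receptor, with 18 and 28 against 46 and 47 reads (log2 fold change 1.07 ± 0.26 (SE), adjusted p = 0.00989). Neuronal and synaptic genes had 1 higher and 1 lower of 37 peaks (2.7% each). The higher peak was in Ptprs, a receptor phosphatase for proteoglycans (10 and 8 against 28 and 18 reads, adjusted p = 0.0236). The lower peak was in Dlgap1, a postsynaptic scaffold (45 and 36 against 19 and 24 reads, adjusted p = 0.0481). Chromatin and DNA methylation regulators had 1 higher and 0 lower of 60 peaks (1.67% higher), in Arid1b. The 15 peaks of receptor tyrosine kinase and RAS-MAPK genes and the 4 of ferroptosis genes held 0 calls by edgeR or DESeq2 (5 and 0 at an unadjusted p under 0.05), with medians of 0.09 and -0.12. Ret and Acvr1, described above, are not in these lists.

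Of the 147 higher later-intron peaks, 14 were hosted by or assigned to a gene of a hematopoietic list. This list of 92 genes was written after these values were seen, 2 of its genes are also in a marker list, and its counts are a description. It does not hold every gene of blood cells, and Swap70, named further below, is not in it. It had 14 higher and 0 lower of 96 peaks (14.6% higher), with a median log2 fold change of 0.28, where 3.1% of all listed peaks were higher and 5.52% lower. 2 of the 14 counted only through the assigned gene, in introns of Med12l (assigned to P2ry14) and Mettl9 (assigned to Igsf6). Rin3, a RAB5 exchange factor of mast and myeloid cells, held 27 and 32 reads in KL and 63 and 59 reads in KLG4m/m cells (log2 fold change 1.10 ± 0.22 (SE), adjusted p = 0.00217). Rac2, the Rac GTPase of leukocytes, held 80 and 84 reads in KL and 131 and 124 reads in KLG4m/m cells (log2 fold change 0.69 ± 0.15 (SE), adjusted p = 0.00357). Lcp2, the SLP-76 adaptor of T cells and platelets, held 54 and 65 reads in KL and 96 and 89 reads in KLG4m/m cells (log2 fold change 0.69 ± 0.17 (SE), adjusted p = 0.0117). In each of these genes the strongest promoter peak was higher too, with log2 fold changes of 0.73, 0.33 and 0.55. Among the other hosts of the 14 peaks, this held only for Prkcb and Il16. Of the 108 promoter peaks of the list within 1 kb of a start, 27 were higher and 3 lower by edgeR. Over all such promoter peaks 2.89% were higher and 8.43% lower. Ptprc, which encodes CD45, the surface protein that the sort selected against, held 23 and 29 reads in KL and 48 and 45 reads in KLG4m/m cells in intron 2 (log2 fold change 0.89 ± 0.24 (SE), adjusted p = 0.0214). The weaker changes were in Gng2 (93 and 94 against 127 and 136 reads), Rhoh (90 and 98 against 119 and 132 reads) and Il16 (121 and 107 against 144 and 151 reads), with log2 fold changes of 0.55, 0.47 and 0.43.

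Marker lists of cell types were read at their promoter peaks, and a sum can hide members that disagree. Summed over promoter peaks, B cell markers (6 of 8 genes with a peak, none at Cd79a or Pax5) held 102 and 83 CPM in the KL and 134 and 145 CPM in the KLG4m/m libraries. T cell markers (9 of 10, none at Cd8a) held 208 and 233 CPM in the KL and 261 and 257 CPM in the KLG4m/m libraries, and macrophage and leukocyte markers (7 of 9, none at Marco or Mrc1) held 176 and 176 CPM in the KL and 207 and 208 CPM in the KLG4m/m libraries. In these 3 lists both KLG4m/m libraries were above both KL libraries. Alveolar type 2 markers (7 of 10) held 336 and 356 CPM in the KL and 285 and 258 CPM in the KLG4m/m libraries, and epithelial markers (7 of 8) held 215 and 208 CPM in the KL and 174 and 189.8 CPM in the KLG4m/m libraries, so that in both lists each KLG4m/m library was below each KL library. Alveolar type 1 markers (5 of 6, none at Ager) held 199.6 and 193 CPM in the KL and 183 and 183 CPM in the KLG4m/m libraries, endothelial markers (6 of 6) held 107 and 124 CPM in the KL and 88.5 and 98.8 CPM in the KLG4m/m libraries, and fibroblast markers (3 of 6, none at Col1a2, Dcn or Tcf21) held 64.4 and 71.7 CPM in the KL and 69.3 and 73.1 CPM in the KLG4m/m libraries. The groups overlapped in the fibroblast list and not in the other 2. Single promoter peaks called higher and lower by edgeR were 4 and 0 of 10 (B cell), 0 and 0 of 13 (T cell) and 1 and 1 of 8 (macrophage and leukocyte). They were 0 and 3 of 8 (alveolar type 2), 0 and 1 of 7 (epithelial), 0 and 1 of 6 (alveolar type 1), 0 and 0 of 6 (endothelial) and 1 and 0 of 4 (fibroblast). Over all promoter peaks within 1 kb 2.89% were higher and 8.43% lower. In cells sorted in bulk, a change in the number of cells of a type cannot be told apart from a change in the mark per cell. Their part in the later-intron results was not tested.

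Later-intron peaks of the marker lists themselves were few. They came to 2 for alveolar type 2, 4 for alveolar type 1, 4 for epithelial, 6 for B cell, 5 for T cell, 5 for macrophage and leukocyte, 5 for endothelial and 0 for fibroblast genes, and Ptprc was the only one past the test by edgeR. Without the 96 peaks of the hematopoietic list, 133 later-intron peaks were higher and 126 lower. Of those with a mean of 50 reads or more, 45 of 654 were then higher (6.88%) and 5 lower, against 52 of 668 (7.78%) and 5 with them. Of the 14 list peaks of that strength 7 were higher, and since the list was written after the values were seen, these counts do not say how much of the signal comes from blood cells.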

How the data were processed

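H3K4me3 CUT&Tag libraries of 2 KL and 2 KLG4m/m samples were analysed. The authors trimmed the reads (Trim Galore 0.6.10), mapped them with BWA 0.7.15, discarded duplicates (Picard 2.17.3), mitochondrial reads and poorly mapped reads, and called peaks with MACS2 2.2.7.1. How peaks were merged and reads counted is not given in the sources used here. The deposited counts are whole numbers of reads per peak and library without normalization, and these were used. The 4 deposited per-library CPM columns and the authors' own comparison (fold changes and p-values) were not used. Each row also gives a distance to the nearest start site. The methods name an Ensembl 94 genome, but the positions do not match GRCm38, so peak positions are printed as listed, with their build unknown, and the promoter sequences (GRCm38.p6) cannot be set beside them.

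Counts of all 35486 peaks were fitted with edgeR 4.0.16 (TMM, quasi-likelihood test, two-sided, Benjamini-Hochberg, adjusted p under 0.05, no filter, no covariate), which was also tested on simulated data. CPM values are TMM-scaled, so a change shared by all peaks would not show. Intervals cover counting error only, at 95%. Named peaks were the 10 largest increases and decreases (threshold passed, groups not overlapping, mean of 5 CPM or more in either group), the 6 strongest, the 3 hosts with the most peaks, at most 4 past the test per gene list, and triacylglycerol genes of the study. The members and gene lists were chosen with earlier results of these data known. An allele that all groups carry, 1 of the 10 largest decreases and 1 gene list are not reported here. Alternatives used DESeq2 1.42.0, limma 3.58.1, other scalings and filters, and left out each library in turn.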

Additional observations from a re-analysis of the deposited data

How the results depend on the processing

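The scaling (DESeq2-style size factors, total reads or the median of all peaks set to 0), limma with a pseudocount of 1 or 0.25 and an added 1.5-fold change kept the count of called later-intron peaks within 1.5 times of 273, from 209 to 293. DESeq2 called 4, 2 higher and 2 lower, and gave no adjusted p for 2997 later-intron peaks. With a filter at a mean of 10 CPM, 1231 later-intron peaks stayed in and 111 were called, 91 higher and 20 lower, since weak peaks were left out. Leaving out each library gave 0 to 157 calls, 0 to 98 higher and 0 to 59 lower. Both fits without a KLG4m/m library gave 0 by edgeR, where the lone library is assumed to vary like the other group, and the cause was not tested. The median log2 fold change was -0.00361 by total reads, -0.00234 with the median of all peaks at 0, 0.101 under the filter, -0.00694 and -0.00769 by limma and 0.00199 to 0.0130 without each library, so its sign depends on the scaling. The difference in the share of reads was 0.173 percentage points, 0.0555 for peaks whose host is the assigned gene, 0.100 without the Chl1 peak (chosen after seeing the data) and 0.167 to 0.179 without each library. Leaving out the hematopoietic list, also chosen after seeing the data, gave 133 higher and 126 lower. Of the peaks named by the rule, the 32 with a call lost it without either KLG4m/m library, and 10, not all the same, did so without KL replicate 1 and without KL replicate 2. Uncalled peaks turned sign without a library, Ccdc134 intron 6 between -0.0599 and 0.596, Chd2 intron 2 between -0.158 and 0.0789 and Gm36876 intron 3 between -0.0421 and 0.0989 (log2 fold changes, negative without KL replicate 2 in Ccdc134 and without KLG4m/m replicate 4 in Gm36876, positive without KLG4m/m replicate 3 in Chd2). No paired analysis was possible because the groups share no replicate number. Most later-intron peaks held under 30 reads, which limits the precision of their values.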

Other observations

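Further hosts, named after their values were seen, held more than 1 called later-intron peak. Septin9, which encodes a septin of the cytoskeleton, held 2 higher peaks in intron 3, with 54 and 78 against 97 and 94 reads and 93 and 103 against 126 and 134 reads, KL libraries first (edgeR adjusted p = 0.0360 and 0.0420). Swap70, a guanine nucleotide exchange factor of B cells, held 4 and 7 against 16 and 15 reads and 14 and 14 against 27 and 29 reads (adjusted p = 0.0484 and 0.0383). Cdk8, the kinase of the Mediator complex, held 2 lower peaks in introns 6 and 7, with 18 and 24 against 4 and 8 reads and 21 and 24 against 8 and 10 reads (adjusted p = 0.0162 and 0.0399).

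Firre, an X-linked noncoding gene that shapes nuclear organization, held 14 later-intron peaks within 56.8 kb. Of these 11 had a log2 fold change below 0, the median was -0.33, and 1 passed the test, with 42 and 29 against 20 and 15 reads (log2 fold change -0.96 ± 0.30 (SE), adjusted p = 0.0434, edgeR). Its promoter peak had a log2 fold change of -0.07 (adjusted p = 0.796). The peaks of Firre share their locus and are not independent. Over the 55 later-intron peaks of the X chromosome, which include the 14 of Firre, the median was -0.14, against 0.06 for other listed peaks there. No median without Firre was taken.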
